A study of Homo sapiens with 6 samples.

Results

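Neighbour peaks are non-exon peaks of an SF3B4 RNA immunoprecipitation whose nearest edge lay within 1 kb of an interval of the mRNA list of the same experiment. There were 387 of them among 25797 non-exon peaks in RIP-1 (1.50%) and 789 among 134094 in RIP-2 (0.588%), or 1176 of 159891 in all. The peaks were chosen by position alone. The distance was taken as the start of the later region minus the end of the earlier one, and the strand of the nearest interval put each peak upstream or downstream of it in the sense of transcription. Distances carry an uncertainty of 1 bp, since the counting base of the mRNA lists is unknown.

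SF3B4 belongs to SF3b, a protein complex with which the U2 small nuclear ribonucleoprotein holds on to the branch site of an intron during splicing. The branch site lies in the intron a short way before the 3′ splice site, so for an exon inside a gene the RNA around the branch site is on the upstream flank of that exon. The 5′ splice site and the start of the next intron are on the downstream flank. The series title also names METTL16, an enzyme that methylates adenosines of RNA at the N6 position.

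The series comprised 6 libraries from wild-type HEK293T, a line of human embryonic kidney cells with the large T antigen of SV40. In RNA immunoprecipitation and sequencing (RIP-seq), RNA is recovered with the protein it binds, and here anti-SF3B4, non-specific IgG and input libraries, 2 of each, came from the experiments RIP-1 and RIP-2. No treatment was given in the labels, and all groups share the same cell line. The values are 4 lists from 1 peak call per experiment, which the authors divided into a list named mRNA (10960 intervals in RIP-1, 10280 in RIP-2) and a list named NotExon.

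The control library of the calls and the depth of the libraries are unknown, so no value of RIP-1 was set against RIP-2 by depth. The sources used here do not define the list names. Of all non-exon peaks, 22 of RIP-1 overlapped an mRNA-list interval of RIP-2 and 19 of RIP-2 overlapped one of RIP-1, so the names do not separate the 2 kinds of region fully across experiments. No genome or annotation of the build hg19 was used here, so exons, introns and genes were not named and no sequence is printed. Shares carry 95% Wilson intervals, which take each peak as independent and include no error but that of counting. Peaks of an experiment are not replicates, and the 2 experiments are the only replication.

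No neighbour peak overlapped an interval of its own experiment. In RIP-1 the 387 peaks lay beside 381 intervals (3.48% of the mRNA list), and in RIP-2 the 789 peaks lay beside 772 intervals (7.51%). Peak numbers follow position along the chromosome, and in 385 of 387 cases in RIP-1 and 785 of 789 in RIP-2 the peak and its interval carried consecutive numbers. In nearly all cases no other peak of the call therefore stood between them. A second interval within 1 kb was found for 9 peaks of RIP-1 and 10 of RIP-2. In all 9 of RIP-1, and in 9 of the 10 of RIP-2, the peak lay between 2 intervals of the same strand, downstream of one and upstream of the next. These peaks were classed by the nearer interval, and 1 peak of RIP-1 was equally far from both and was given to the interval at the lower position.

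The intervals of the mRNA lists are often shorter than any whole peak. In RIP-1, 5230 of them (47.7%) were shorter than the shortest non-exon peak of 206 bp, and in RIP-2, 6226 (60.6%) were shorter than the shortest of 200 bp. The edges of such intervals may thus lie inside the peak from which they came, and distances are to the deposited edge.

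Neither experiment had a detectable excess of neighbour peaks on the upstream flank. In RIP-1, 185 peaks lay upstream and 202 downstream, an upstream share of 47.8% (95% CI 42.9 to 52.8). In RIP-2, 367 lay upstream and 422 downstream, a share of 46.5% (95% CI 43.1 to 50.003). Mirroring every peak through the middle of its interval swaps the sides, so mirrored positions give 50% by chance, and both intervals included that value. Both point values were below 50%, that is, toward the downstream side. The shares of the experiments differed by 1.29 percentage points (RIP-1 minus RIP-2, 95% CI -4.75 to 7.35).

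The RIP-2 share sat at the edge of the threshold. Counting each interval once gave 46.1% (95% CI 42.6 to 49.6), and keeping only peaks whose mirrored position was free of other intervals gave 46.3% (95% CI 42.8 to 49.9), both below 50%. Other settings gave intervals that included 50%. These were limits of 500 bp (47.2%, 95% CI 41.4 to 53.2) and 2 kb (48.6%, 95% CI 46.3 to 50.9), and peak midpoints (47.8%, 95% CI 43.0 to 52.6), among others. By strand, the RIP-2 share was 48.9% beside plus-strand intervals (199 of 407, 95% CI 44.1 to 53.7) and 44.0% beside minus-strand intervals (168 of 382, 95% CI 39.1 to 48.992). In RIP-1 it was 44.4% on the plus strand (83 of 187, 95% CI 37.4 to 51.5) and 51.0% on the minus strand (102 of 200, 95% CI 44.1 to 57.8). The strand with the lower share was thus not the same in both experiments. Without regard to strand, 181 of 387 RIP-1 peaks lay at lower coordinates than their interval (46.8%, 95% CI 41.9 to 51.7), as did 413 of 789 RIP-2 peaks (52.3%, 95% CI 48.9 to 55.8).

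Non-exon peaks farther out served as the background of the sides. Between 1 and 10 kb from the nearest interval, 1425 of 2966 RIP-1 peaks (48.0%, 95% CI 46.3 to 49.8) and 4262 of 8368 RIP-2 peaks (50.9%, 95% CI 49.9 to 52.003) lay upstream. The RIP-1 interval at that distance left out 50% while the one within 1 kb did not. Set against this background, the upstream share within 1 kb differed by -0.241 percentage points in RIP-1 (95% Newcombe CI -5.49 to 5.05), which was not detectable. In RIP-2 the difference was -4.42 points (95% CI -8.03 to -0.768), so the nearest peaks of RIP-2 lay upstream less often than those at 1 to 10 kb. By bins of 1000 bp beyond the first kb, the RIP-2 share ran from 49.9% to 53.5%. At 1 to 2 kb it was 50.1% (536 of 1069, 95% CI 47.1 to 53.1). The difference from that bin alone was not tested.

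**Figure D1:**
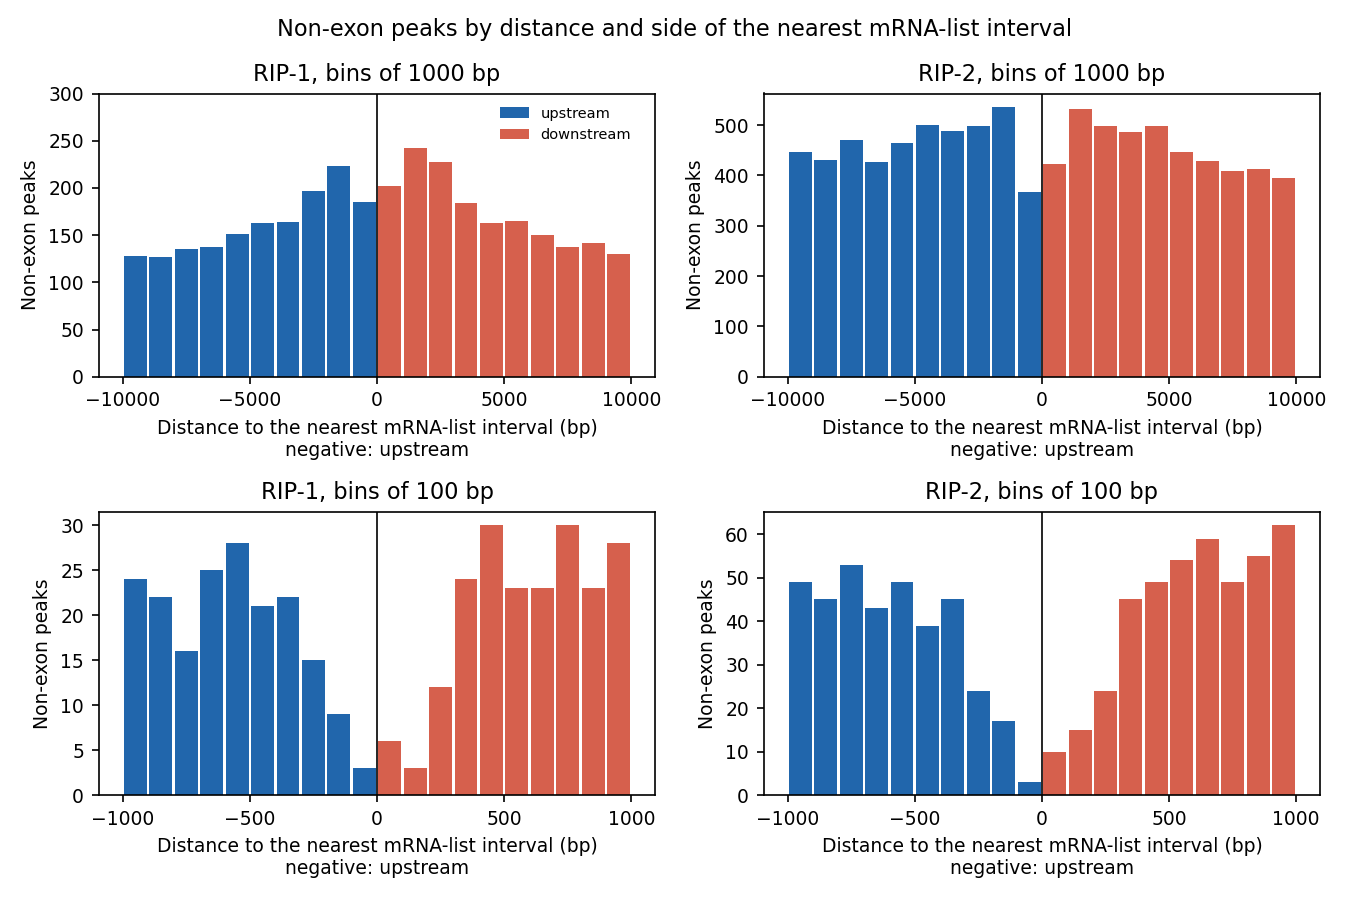
Number of non-exon peaks (y axis) by distance in bp to the nearest mRNA-list interval of the same experiment (x axis, upstream negative, in blue, and downstream in red), in bins of 1000 bp out to 10 kb (upper row) and of 100 bp out to 1 kb (lower row). The first kb holds fewer peaks than the second in both experiments, and in the lower row the bins under 200 bp are the emptiest on both sides.

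Few peaks came close to an interval on either side. Where an interval is only part of a wider peak, that peak may already fill the nearest bins. The low counts there thus cannot show where peaks would otherwise lie. The median distance in RIP-1 was 567 bp upstream (interquartile range 387 to 781) and 618.5 bp downstream (430 to 800.2), and in RIP-2 it was 623 bp upstream (406.5 to 804) and 617.5 bp downstream (422 to 815). Under 200 bp there were 21 peaks in RIP-1, 12 upstream and 9 downstream, and 45 in RIP-2, 20 upstream and 25 downstream. The first 100 bp held 3 upstream and 6 downstream peaks in RIP-1, and 3 and 10 in RIP-2. From 300 bp on, each bin of 100 bp held 45 to 52 peaks in RIP-1 and 88 to 111 in RIP-2. Where an interval begins at the edge of an exon inside a gene, the branch site falls into these first upstream bins. Where its edge lies inside an exon, these bins hold exon sequence, and exon edges were not known here. The first downstream bins were sparse too. A whole peak over the branch site could reach into the exon, and no neighbour peak overlapped an interval. Such a peak may thus stand in the mRNA list, so these bins cannot decide whether the branch site was bound.

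At the scale of 1 kb the order was the same in both experiments. In RIP-1 the first kb held 387 peaks, the second 465 and the third 425, after which the number declined to 258 in the last bin before 10 kb. In RIP-2 the first kb held 789 peaks, the second 1069 and the third 997, with 842 in the last bin. By side, the first kb of RIP-2 held 367 peaks upstream against 536 in the second, and 422 against 533 downstream. For RIP-1 these were 185 against 223 upstream and 202 against 242 downstream. How much of the first kb is taken up by the peaks to which the intervals belong was not tested. Whether the lower count of the first kb differs between the sides was not tested either.

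The nearest peak of each experiment is a single region, and their strengths do not describe the other neighbour peaks. In RIP-1 the nearest lay on chromosome 3 from 49895085 to 49896697 (positions are of the build hg19 throughout), 10 bp downstream of a minus-strand interval, with a score of 139.8 (rank 1512 of the RIP-1 list) and a fold enrichment of 6.86. In RIP-2 the nearest lay on chromosome 5 from 35700183 to 35700700, 2 bp upstream of a plus-strand interval from 35700702 to 35700854, with a score of 54.1 (rank 121905 of the RIP-2 list). Its fold enrichment was 8.19. The distance limit cut through a dense range. The last peaks inside it, at 1000 bp, were on chromosome 11 from 64973016 in RIP-1 (score 209.2) and on chromosome 2 from 219205178 in RIP-2 (score 77.2). The first ones outside, at 1003 and 1001 bp, were on chromosome 3 from 169379123 in RIP-1 (score 93.0) and on chromosome 16 from 14171599 in RIP-2 (score 129.6).

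The non-exon peaks of one experiment were also placed beside the mRNA-list intervals of the other, which came from a separate call. Each non-exon list had already been divided from the mRNA list of its own call. The placement therefore cannot show whether that division set the sides. Of 254 RIP-1 non-exon peaks within 1 kb of a RIP-2 interval, 22 overlapped it and 109 of the other 232 lay upstream (47.0%, 95% CI 40.7 to 53.4). Of 431 RIP-2 non-exon peaks within 1 kb of a RIP-1 interval, 19 overlapped it and 194 of the other 412 lay upstream (47.1%, 95% CI 42.3 to 51.9). Both shares were again below 50% with intervals that included it. Of these peaks, 22 of the 254 and 65 of the 431 were also neighbour peaks within their own experiment.

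**Figure D2:**
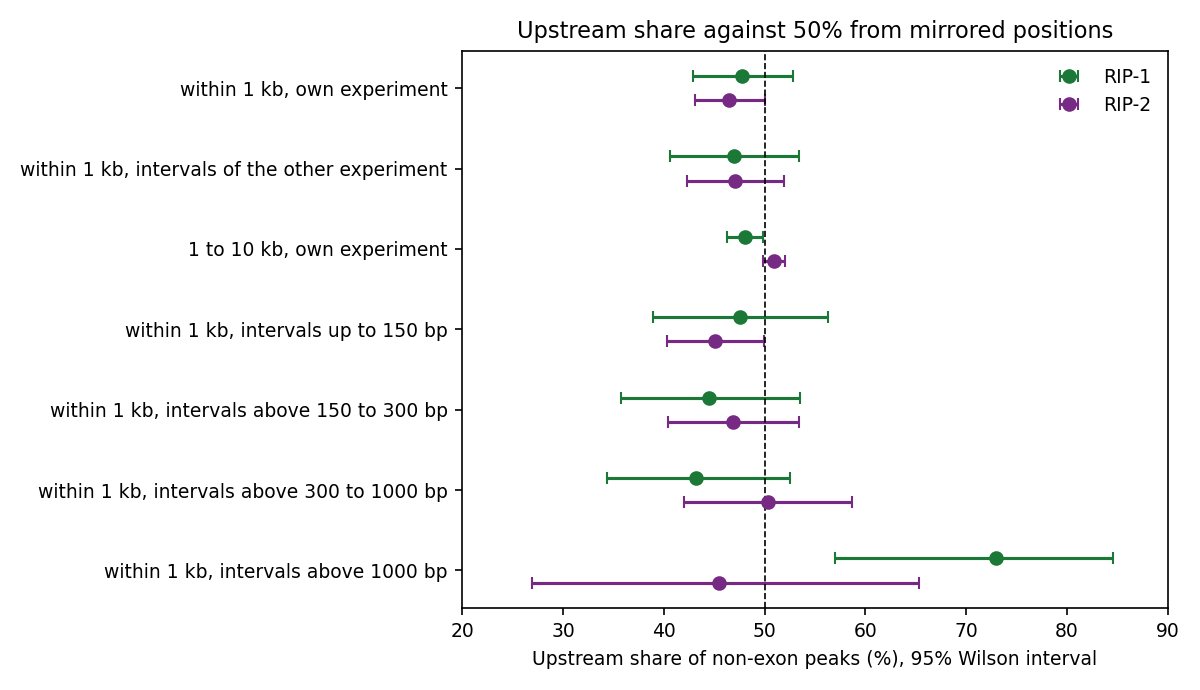
Upstream share of non-exon peaks in percent (x axis) with 95% Wilson intervals, for RIP-1 (green) and RIP-2 (purple), by distance and by length of the mRNA-list interval. The dashed line marks the 50% given by mirrored positions, and RIP-1 peaks beside intervals over 1000 bp stand at 73.0%, to its right.

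The length of the interval went with the side in RIP-1. Beside intervals of up to 150 bp, 58 of 122 RIP-1 peaks lay upstream (47.5%, 95% CI 38.9 to 56.3), beside those above 150 and up to 300 bp 52 of 117 (44.4%, 95% CI 35.8 to 53.5), and beside those above 300 and up to 1000 bp 48 of 111 (43.2%, 95% CI 34.4 to 52.5). Beside intervals longer than 1000 bp, 27 of 37 lay upstream (73.0%, 95% CI 57.0 to 84.6). This class was set after the values were seen, so the share is a description without a test. Farther out, at 1 to 10 kb, 197 of 327 RIP-1 peaks beside intervals longer than 1000 bp lay upstream (60.2%), and 1228 of 2639 beside shorter intervals (46.5%).

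RIP-2 did not show this split within 1 kb, and whether the experiments differ in it was not tested. Beside intervals longer than 1000 bp, 10 of 22 RIP-2 peaks lay upstream (45.5%, 95% CI 26.9 to 65.3), and at 1 to 10 kb 162 of 304 (53.3%). Beside intervals of up to 150 bp the RIP-2 share was 45.1% (184 of 408, 95% CI 40.3 to 49.9), beside those above 150 and up to 300 bp 46.9% (105 of 224) and beside those above 300 and up to 1000 bp 50.4% (68 of 135). Long intervals were more common in the RIP-1 mRNA list, with 1445 of 10960 over 1000 bp (13.2%), than in that of RIP-2, with 425 of 10280 (4.13%). In transcripts, long exons are mostly last exons with the 3′ untranslated region, whose downstream flank lies outside the gene; whether these intervals are last exons was not tested.

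The deposited score, which appears to be MACS's -10 log10(p) for each peak, differed little between the sides. These strengths come from the same calls that chose the peaks and are descriptions without a test. In RIP-1 the median score was 77.5 upstream (interquartile range 61.5 to 107.3) and 78.3 downstream (61.4 to 118.2), against 66.8 in the rest of the non-exon list. In RIP-2 it was 79.0 upstream (61.5 to 110.7) and 80.1 downstream (61.7 to 114.6), against 80.6 in the rest. Neighbour peaks thus scored higher than the rest in RIP-1 and about the same in RIP-2. The higher score was not particular to the first kb. RIP-1 peaks at 1 to 2 kb had a median score of 79.3, against 77.5 for all neighbour peaks. The median over 1 to 10 kb was 72.1.

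Neighbour peaks were wider than the rest in both experiments. The median length in RIP-1 was 932 bp upstream and 1010.5 bp downstream, against 706 bp in the rest. In RIP-2 it was 621 bp upstream and 639 bp downstream, against 564 bp in the rest. The deposited fold enrichment over the control went the other way. Its median was 6.22 upstream and 6.23 downstream in RIP-1, against 6.55 in the rest, and 7.71 on both sides in RIP-2, against 8.19 in the rest. Non-exon peaks at 1 to 10 kb from an interval resembled the neighbour peaks, with a median length of 929 bp for RIP-1 and 607 bp for RIP-2, and median fold enrichments of 6.07 and 7.71.

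The strongest neighbour peaks of RIP-1 stood high in the whole list. A false discovery rate (FDR) of 5% or less was deposited for 10 of the 387 (2.58%), 4 upstream and 6 downstream, against 175 of 25797 in the whole list (0.678%). An FDR of 100% was deposited for 319 of the 387 (82.4%; whole list 94.1%), and in RIP-2 for 315 of 789 (39.9%; whole list 41.6%). In RIP-2 the lowest FDR of a neighbour peak was 68.35%, and none of the whole list reached 5%. The highest score of the RIP-1 non-exon list was 3100. It was not an upper limit of the deposited scores, since RIP-1 mRNA-list intervals scored up to 3218. The score of 3100 was held by 3 neighbour peaks of RIP-1 among 21 non-exon peaks of the list.

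Of those 3, a pair enclosed a single minus-strand interval on chromosome 1 from 153957459 to 153957668, which itself scored 3108. The upstream peak lay from 153957731 to 153959239, 63 bp from the interval, with a fold enrichment of 73.4, the sixth highest of the RIP-1 list. The downstream peak lay from 153953535 to 153956537, 922 bp from the interval, with 178.7, the highest of the list. The other peak at 3100 lay downstream of a minus-strand interval on chromosome 1, from 1719999 to 1720880, at a distance of 953 bp and with a fold enrichment of 39.7. Its interval, from 1721833 to 1722035, scored 2766. None of the 3 had an overlap with the non-exon list of RIP-2.

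The other upstream peaks of RIP-1 with the highest scores were less extreme. One lay on chromosome 1 from 205688109 to 205690221 (score 1751, fold enrichment 11.7), 502 bp from an interval of 5297 bp that scored 1915. Another lay on chromosome 1 from 68150772 to 68153054 (score 1338, fold enrichment 18.9), 289 bp from an interval that scored 1348. The next lay on chromosome 3 from 51424648 to 51425668 (score 1297, fold enrichment 20.6) and on chromosome 1 from 44082701 to 44087313 (score 669, fold enrichment 5.68). Downstream, the next were on chromosome 19 from 2271003 to 2274960 (score 1376), chromosome 6 from 125620860 to 125622200 (score 1171) and chromosome 1 from 155232295 to 155240074 (score 1168). None of these 7 had such an overlap either, which makes 0 of 10 for the highest scores of both sides, while 18.1% of all RIP-1 non-exon peaks had one; a count over 10 peaks is too small to read against that share.

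In RIP-2 the highest scores were lower, and the intervals beside these 10 peaks scored from 53.1 to 371. The first upstream peak lay on chromosome 1 from 104289247 to 104292059 (score 438, rank 313 of the list), 380 bp from an interval that scored 53.1. It was followed by a peak on chromosome 7 from 143885701 to 143886740 (score 389.8), one on chromosome 2 from 87411731 to 87412230 (score 378), one on chromosome X from 154465569 to 154466755 (score 360.3) and one on chromosome 7 from 74978979 to 74980062 (score 306). The first downstream peak lay on chromosome X from 134887639 to 134888708 (score 592, rank 102), 322 bp from an interval that scored 114.7. The others lay on chromosome 13 from 31544061 (score 504), chromosome X from 140098796 (score 331), chromosome 4 from 104101277 (score 330.9) and chromosome 17 from 7684839 (score 323). Of these 10, the peak on chromosome 2 and those on chromosome X from 134887639 and on chromosome 4 overlapped a RIP-1 non-exon peak, as did 3.63% of all RIP-2 non-exon peaks. Here too, a count over 10 peaks is too small to read against that share.

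**Figure D3:**
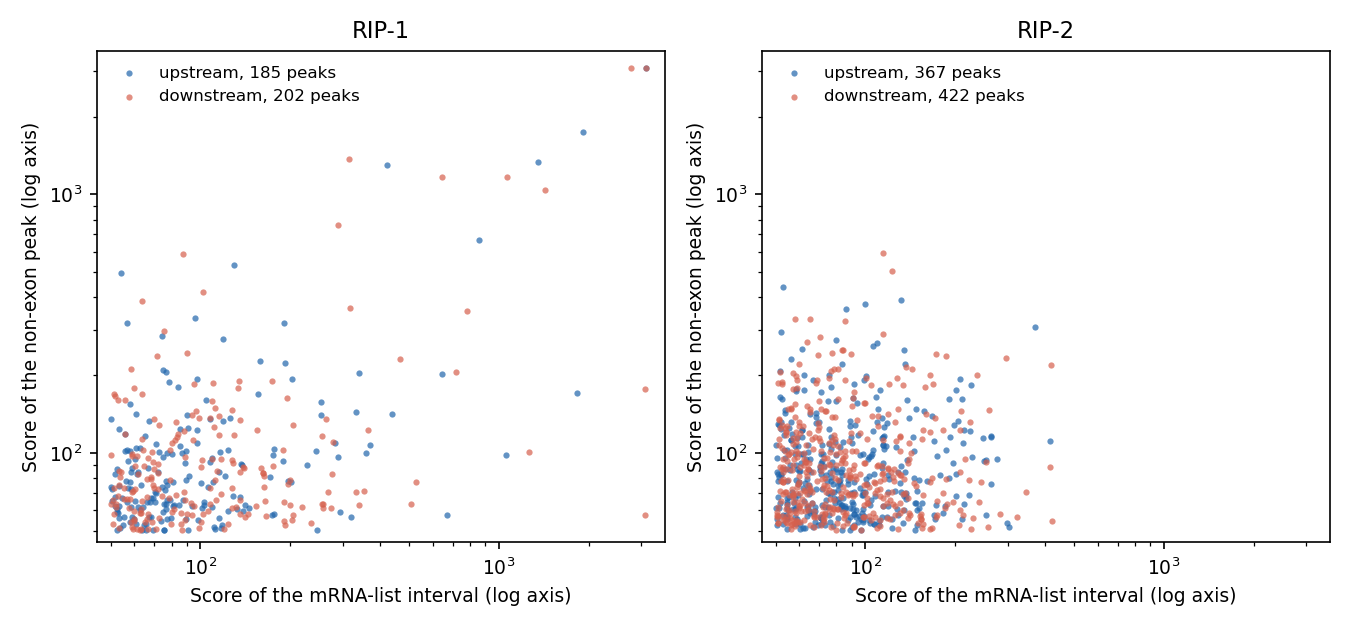
Score of each neighbour peak (y axis, log scale) against the score of its mRNA-list interval (x axis, log scale), upstream peaks in blue and downstream peaks in red. In RIP-1 a small group of peaks reaches scores above 1000 beside strong intervals, up to 3100, while in RIP-2 no neighbour peak exceeds 592.

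The scores of a peak and of its interval rose together in RIP-1 to some extent. Over 387 pairs the Spearman correlation was 0.238 and the Pearson correlation of log10 scores 0.501, and over the 789 pairs of RIP-2 they were -0.00695 and 0.0231. The members of a pair share the library, the control and the neighbourhood, and the values are descriptions. Intervals with a neighbour peak had a median score of 86.9 in RIP-1 (other intervals 79.6) and 80.9 in RIP-2 (other intervals 79.5), and median lengths of 220 bp (other intervals 217 bp) and 144 bp (other intervals 163 bp).

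A peak on both sides of 1 interval was rare. It occurred at 4 of 381 intervals in RIP-1 and at 13 of 772 in RIP-2, and 2 and 4 further intervals had 2 peaks on the same side. Ranked by the lower score of the 2 peaks, the pair after that on chromosome 1 enclosed, in RIP-1, a plus-strand interval on chromosome 12 from 104698161 to 104698982. Its upstream peak, 923 bp away, had a score of 64.7 and its downstream peak, 820 bp away, 66.0. The next enclosed a plus-strand interval on chromosome 1 from 44035260 to 44035449, with a score of 59.7 for the upstream and 88.5 for the downstream peak.

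In RIP-2 the pair with the highest lower score enclosed a minus-strand interval on chromosome 2 from 118753839 to 118753938, with scores of 141 upstream and 144 downstream. The second enclosed a plus-strand interval on chromosome 2 from 113057425 to 113057606, with 136.7 upstream and 109.02 downstream. The third, on chromosome X from 100474932 to 100475135, had 110.9 upstream and 88.5 downstream, beside an interval that scored 417. In these 3 pairs the scores of the 2 sides were within 1.5 times of each other. The pairs were chosen by the lower of their 2 scores, which favours similar sides, and the other pairs were not compared.

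**Figure D4:**
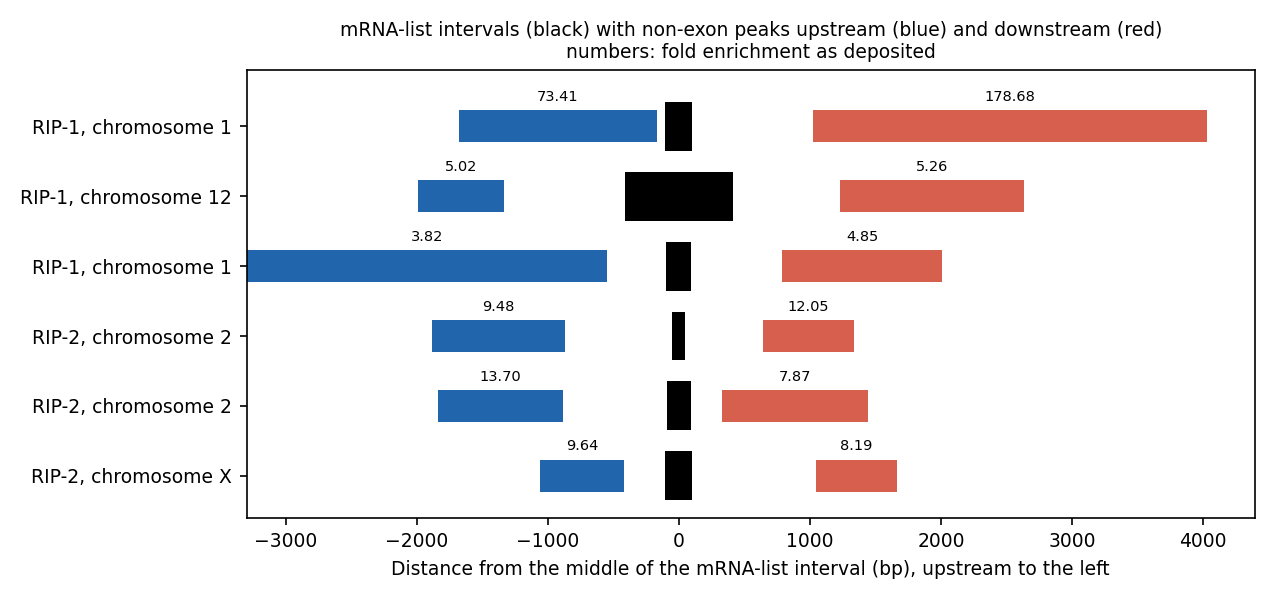
Map of the 3 intervals of each experiment with neighbour peaks on both sides and the highest lower score of those peaks, drawn by distance in bp from the middle of the interval with upstream to the left; intervals are black, upstream peaks blue and downstream peaks red, and numbers give the deposited fold enrichment. The first pair of RIP-1, with 73.41 upstream and 178.68 downstream, stands apart from the others drawn, which lie between 3.82 and 13.70.

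Overlap with the other experiment was not used to choose the peaks. Of the 387 neighbour peaks of RIP-1, 19 had an overlap of at least 1 bp with the non-exon list of RIP-2 (4.91%, 95% CI 3.17 to 7.54), whereas 18.1% of all RIP-1 non-exon peaks did. Against the other peaks of the list, of which 18.3% overlapped, the difference was -13.4 percentage points (95% CI -15.2 to -10.8). Against the peaks at 1 to 10 kb, of which 13.0% overlapped, it was -8.14 points (95% CI -10.3 to -5.26). Among RIP-1 peaks in the upper 50% by score, set against the upper 50% of the RIP-2 list, 1 of 241 neighbour peaks overlapped (0.415%), against 1442 of 12660 other peaks (11.4%). The neighbour peaks were wider than the rest, and among peaks of 500 to 1000 bp in both sets the difference was -10.3 points (95% CI -13.1 to -5.53). Without chromosomes 17 and 19 it was -13.8 points (95% CI -15.7 to -10.8).

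In RIP-1 the share was higher farther from the intervals. It was 4.91% within 1 kb, 11.4% at 1 to 2 kb (53 of 465, 95% CI 8.82 to 14.6), 10.3% at 2 to 5 kb (113 of 1099, 95% CI 8.62 to 12.2), 15.8% at 5 to 10 kb (221 of 1402, 95% CI 13.9 to 17.8), 19.2% at 10 to 100 kb and 18.9% beyond. RIP-2 non-exon peaks were fewer around the RIP-1 neighbour peaks, with a mean of 8.83 within 100 kb of the middle of a neighbour peak and 12.4 around the other RIP-1 peaks. Around the RIP-1 peaks at 1 to 2 kb and at 2 to 5 kb the means were 9.37 and 9.71. The part of this density in the lower overlap was not tested. No RIP-1 neighbour peak overlapped a RIP-2 mRNA-list interval, so adding the RIP-2 mRNA list left the count at 19.

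RIP-2 neighbour peaks did not show a lower overlap. Of 789, 39 overlapped a RIP-1 non-exon peak (4.94%, 95% CI 3.64 to 6.69), against 3.63% of the whole list, and the difference from the other peaks was 1.32 percentage points (95% CI 0.0140 to 3.07). Against peaks at 1 to 10 kb the difference was -0.447 points (95% CI -1.85 to 1.36), so this small excess was not detectable against peaks farther out from the same intervals, and it was not detectable among peaks of 500 to 1000 bp (1.13 points, 95% CI -0.544 to 3.60). RIP-1 non-exon peaks were slightly denser around RIP-2 neighbour peaks, with a mean of 2.95 within 100 kb against 2.36 around the other RIP-2 peaks. In RIP-2 the share was 5.89% at 1 to 2 kb (95% CI 4.63 to 7.47) and 3.06% beyond 100 kb (95% CI 2.94 to 3.18).

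**Figure D5:**
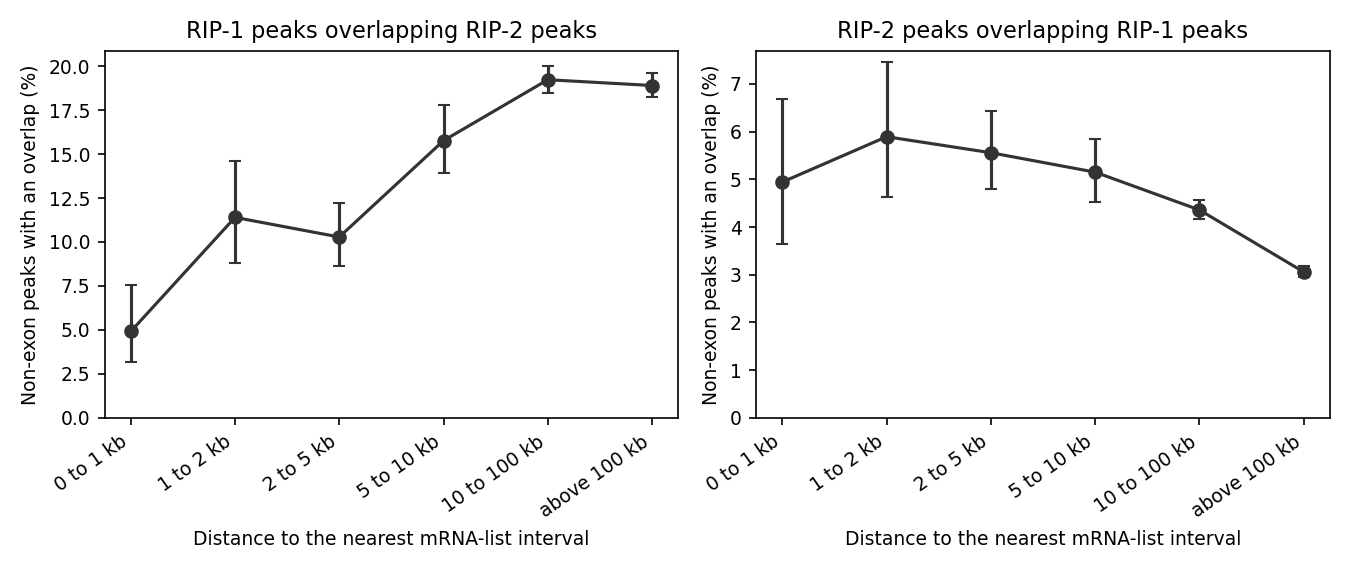
Share of non-exon peaks in percent (y axis, with 95% Wilson intervals) that overlap a non-exon peak of the other experiment, by distance to the nearest mRNA-list interval of their own experiment (x axis). In RIP-1 the share is lowest within 1 kb, at 4.91%, and 18.9% beyond 100 kb, while in RIP-2 it is 4.94% within 1 kb and lowest beyond 100 kb, at 3.06%.

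Of the 19 RIP-1 neighbour peaks with an overlap in RIP-2, 2 met a RIP-2 neighbour peak; neighbour peaks made up 0.588% of the RIP-2 non-exon list. The first place was on chromosome 3, where a RIP-1 peak spanning 137954740 to 137955719 (score 118, fold enrichment 9.34) met a RIP-2 peak spanning 137954887 to 137955548 (score 72.1, fold enrichment 5.53). Both lay downstream of the same plus-strand interval, from 137953875 to 137953956, which had the same edges in both mRNA lists and scored 55.8 in RIP-1 and 109.6 in RIP-2. On chromosome 20 was the other place, where a RIP-1 peak spanning 47783176 to 47783789 (score 56.5, fold enrichment 4.06) met a RIP-2 peak spanning 47783346 to 47783845 (score 163, fold enrichment 9.63). Both lay upstream of the same minus-strand interval, from 47782533 to 47782822, which scored 55.6 in RIP-1 and 90.95 in RIP-2. One of the 2 places was thus upstream and the other downstream.

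Intervals with a neighbour peak recurred in the other experiment about as often as the rest of the mRNA list. In RIP-1, 21 of 381 overlapped a RIP-2 interval on the same strand (5.51%, 95% CI 3.63 to 8.28), against 6.41% of all RIP-1 intervals. In RIP-2, 56 of 772 overlapped a RIP-1 interval (7.25%, 95% CI 5.63 to 9.30), against 6.91% of all RIP-2 intervals. In the non-exon list of RIP-1, 0.0853% of peaks overlapped a RIP-2 interval, and of all RIP-2 non-exon peaks 0.0142% overlapped a RIP-1 interval. The single neighbour peak that did was a RIP-2 peak on chromosome 16 from 788983 to 789914 (score 152), downstream of a minus-strand interval, and it overlapped a RIP-1 interval of that strand from 789642 to 790099 (score 57.1).

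Neighbour peaks made up a larger part of the non-exon list on chromosome 19 than elsewhere in RIP-1, a description of where the chosen peaks lie. On chromosome 19, 36 of 703 RIP-1 non-exon peaks were neighbour peaks (5.12%, 95% CI 3.72 to 7.01), and 19 of 1855 in RIP-2 (1.02%, 95% CI 0.657 to 1.59), against 1.50% and 0.588% of the whole lists. Chromosome 16 followed in RIP-1 with 25 of 743 (3.36%, 95% CI 2.29 to 4.92). Chromosome X was low in RIP-1 with 9 of 1350 (0.667%, 95% CI 0.351 to 1.26) and chromosome 8 in RIP-2 with 18 of 5467 (0.329%, 95% CI 0.208 to 0.520). Chromosome 19 also holds many intervals for its non-exon peaks, 665 for 703 in RIP-1. Per 100 intervals there were 5.41 neighbour peaks on chromosome 19 in RIP-1, against 6.49 on chromosome 16 and 2.56 on chromosome X. The lowest in RIP-1 was 1.89, on chromosome 10. In RIP-2 there were 6.38 on chromosome 19, against 9.48 on chromosome 16 and 7.42 on chromosome X. By this measure chromosome 19 was not high in RIP-2.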

How the data were processed

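The files analysed are 4 peak lists from 2 RIP experiments of 3 groups. The tools named in the submitters' processing notes are cutadapt 1.9.3 and HISAT2 2.0.4, with the build hg19. Peaks are named after MACS, and its version, settings and control are not given in the sources at hand. The lists have no header, so the meaning of the deposited score, the deposited fold enrichment (a linear ratio), the deposited FDR in percent and the deposited length in bp was taken from the values and the column order. All per-peak values are the authors' own. Peaks were called per experiment, and the lists hold no read counts, so depth is unknown.

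Computed here, with Python 3.11.15, numpy 2.4.6, pandas 2.3.3 and scipy 1.17.1, were distances, sides, mirrored positions, overlaps of at least 1 bp, and Wilson and Newcombe intervals at 95%. The scripts were tested on simulated peaks of known side. A share was called where its interval left out 50%, and a difference where its interval left out 0. No test over resampled peaks was made, and no p-value is given. Alternatives were distance limits of 500 bp and 2 kb, other ways of counting peaks and intervals, and other overlaps. Regions named are, per experiment, the 5 highest scores on each side, the 3 intervals with peaks on both sides and the highest lower score of those peaks and the peaks at the distance limit, and the places found in both experiments. The nearest peak of each experiment and the peak on an interval of the other experiment were named after their values were seen. The peaks and the comparisons were chosen with earlier results of these data known.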

Additional observations from a re-analysis of the deposited data

How the results depend on the processing

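Of 52 alternative values, 38 kept their direction and their side of the threshold. For the upstream share of RIP-1, 47.8% with an interval that included 50%, the value moved above 50% with intervals longer than 300 bp (50.7%), with intervals flanked by others of their strand within 100 kb (52.99%) and by peak midpoint (52.3%), each time with an interval that included 50%, and to 73.0% with intervals longer than 1000 bp, where it did not. For RIP-2, at 46.5%, the interval no longer included 50% when each interval counted once (46.1%), with mirrored positions free of intervals (46.3%), with intervals of at most 300 bp (45.7%) and with flanked intervals (43.0%). The cause was not tested. Under the other alternatives for the upstream share of RIP-2 neighbour peaks, the interval still included 50%. For RIP-2 peaks beside RIP-1 intervals, a limit of 500 bp gave 50.3% and one of 2 kb gave 46.0% (95% CI 42.8 to 49.2), which left out 50%. The share at lower coordinates in RIP-2 was 48.7% at 500 bp, against 52.3% at 1 kb. For overlap with the other experiment, every alternative of RIP-1 stayed below 0, from -14.1 to -8.14 points. In RIP-2 the difference of 1.32 points turned to -0.447 against peaks at 1 to 10 kb, and its interval included 0 in the upper 50% by score (1.15 points, fewer peaks by construction) and at widths of 500 to 1000 bp (1.13 points). Interval classes at 1000 bp, both lists together, chromosomes 17 and 19 left out and the width classes were chosen after the data were seen. No paired analysis was possible because the lists hold no values of single libraries. Each value is given per experiment, so leaving out one experiment leaves the value of the other. Unknown depth and control limit every comparison between the experiments.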
